A study of Mus musculus with 13 samples.

Results

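White blood cell miRNAs were followed in small-RNA libraries of mouse hippocampus and prefrontal cortex (PFC). They were defined by hairpin, as every arm counted from mmu-mir-142a, mmu-mir-150 and mmu-mir-223. In the 13 libraries these 3 hairpins gave 6 arms of the 1514 pairs of hairpin and mature miRNA that were listed, and all 6 were counted in every library. The rule uses hairpin names and no measured value.

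A miRNA hairpin is cut into a 5p and a 3p arm, and the arm that is loaded into an Argonaute protein pairs through its seed, bases 2 to 8, with target mRNAs and represses them. miR-142 is made across the blood-forming lineage, including microglia, the macrophages of brain tissue. miR-150 is abundant in mature lymphocytes and restrains the transcription factor Myb, and miR-223 is abundant in neutrophils and other myeloid cells. In whole brain tissue these miRNAs can come from blood left in vessels, from immune cells in the tissue and, for miR-142, from microglia.

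The libraries came from TgR mice, which carry human AChE-R, the stress-induced readthrough variant of acetylcholinesterase, under a cytomegalovirus promoter-enhancer, and from wild-type FVB/N mice, the strain in which the transgene was raised. There were 3 FVB/N and 3 TgR hippocampal libraries, and 3 FVB/N and 4 TgR PFC libraries. The labels gave neither the ages of these mice nor whether both regions came from the same mice. They reported RNA integrity numbers of 8.6 to 9.3 and 300 ng of RNA per library. Library totals ran from 8769851 to 18385985 counts. The neuronal hairpins mir-124, mir-9, mir-128 and mir-138 summed to 365810 to 557887 CPM (counts scaled to a common library total), against 396 to 623 CPM for the 6 white blood cell arms together, which marks every library as neural tissue and does not tell hippocampus from PFC. Reads of a miRNA with several hairpins were counted under each of them, which inflates the neuronal sum, whereas each white blood cell arm has 1 hairpin. CPM were further scaled by TMM factors, which correct library totals for composition.

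The mature sequences are shown because each arm has its own seed and each hairpin uses its arms differently. They are RefSeq sequences on build GRCm38.p6, written 5′ to 3′ with the seed in capitals.
miR-142a-5p: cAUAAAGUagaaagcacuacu
miR-142a-3p: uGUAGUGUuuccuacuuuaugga
miR-150-3p: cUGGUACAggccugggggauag
miR-223-3p: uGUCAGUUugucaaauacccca
miR-223-5p: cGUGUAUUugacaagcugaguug

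The 5 arms had 5 distinct seeds, and none of the other mature miRNAs among the 1679 in the RefSeq table carried any of them. Of the 1384 mature miRNAs listed in the libraries, 1165 were in that table, and the seeds of the rest were not compared. The sixth arm, miR-150-5p, is named only. The arms of miR-142a lie on the plus strand at chr11:87756867-87756887 and chr11:87756903-87756925, inside the long non-coding gene Mir142hg and outside its annotated exons. A second hairpin gene, Mir142b, is annotated on the opposite strand of the same bases, and no arm of it was listed in any library. miR-150-3p lies at chr7:45121798-45121819 on the plus strand. miR-223-5p and miR-223-3p lie at chrX:96242842-96242864 and chrX:96242884-96242905 on the plus strand, in an exon of the long non-coding gene F630028O10Rik. The Mir142 hairpin is printed with both arms in capitals because both arms were abundant.
Mir142: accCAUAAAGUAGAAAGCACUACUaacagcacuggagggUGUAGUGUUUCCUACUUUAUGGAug

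The 3 hairpins differed widely in level. miR-150-5p ranked 161 among all pairs by mean CPM and was counted 2699 to 5440 times per library. miR-142a-5p ranked 198, with 1281 to 2825 counts, and miR-142a-3p ranked 231, with 782 to 1639 counts. The remaining arms were sparse. miR-223-3p ranked 521 with 12 to 119 counts, miR-150-3p ranked 553 with 17 to 58 counts, and miR-223-5p ranked 726 with 5 to 18 counts. miR-150 gave 49.5% to 61.7% of the summed level of the members in each library, miR-142a 37.7% to 49.9% and miR-223 0.364% to 2.13%. Ligation and amplification efficiency differ between small RNAs, so these shares describe the libraries and not molecules in the tissue.

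**Figure D1:**
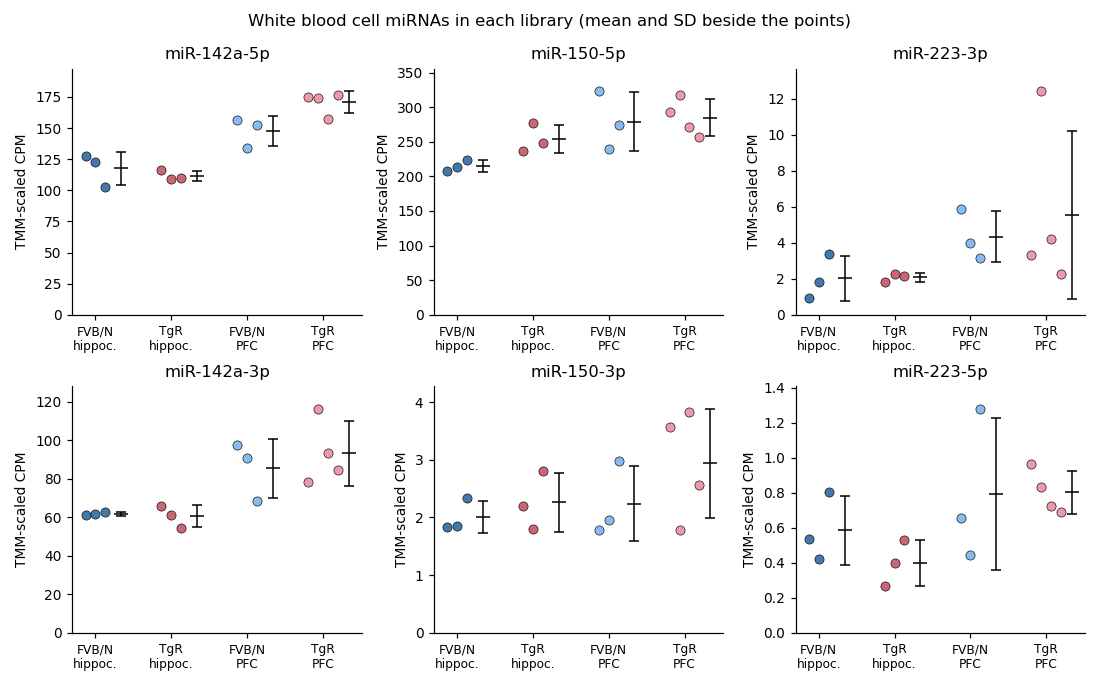
TMM-scaled CPM of the 6 white blood cell miRNA arms in each of the 13 libraries, with 1 point per library and the group mean and SD (bars) beside the points. Each panel has its own axis from 0. Every hippocampal library lies below every PFC library for both miR-142a arms, and 1 TgR PFC library stands at 12.4 CPM for miR-223-3p.

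miR-142a-5p measured 127.7, 122.9 and 102.9 CPM in the 3 FVB/N hippocampal libraries and 116, 109 and 110 CPM in the 3 TgR hippocampal libraries. In the PFC it measured 157, 134 and 153 CPM in FVB/N and 175, 174, 157 and 177 CPM in TgR. The genotypes overlapped in the hippocampus, and in the PFC the lowest TgR library (157.4 CPM) lay just above the highest FVB/N library (156.8 CPM). The highest hippocampal library lay below the lowest PFC library. Group means were 118 ± 13.2 CPM (SD, n = 3) in FVB/N hippocampus, 112 ± 3.96 (n = 3) in TgR hippocampus, 148 ± 12.0 (n = 3) in FVB/N PFC and 171 ± 9.01 (n = 4) in TgR PFC.

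miR-142a-3p, cut from the same hairpin, measured 61.0, 61.5 and 62.8 CPM in FVB/N hippocampus and 65.8, 61.3 and 54.6 CPM in TgR hippocampus. In the PFC it measured 97.5, 90.5 and 68.2 CPM in FVB/N and 78.2, 116, 93.4 and 84.4 CPM in TgR. It showed the same order of regions as the 5p arm, with the 2 genotypes overlapping in each. Its spread within a group was 0.924 CPM (SD, n = 3) around 61.8 in FVB/N hippocampus and 16.7 CPM (n = 4) around 93.0 in TgR PFC.

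miR-150-5p, the lymphocyte miRNA, measured 207, 213 and 224 CPM in FVB/N hippocampus and 237, 277 and 249 CPM in TgR hippocampus. In the PFC it measured 323, 239 and 275 CPM in FVB/N and 293, 318, 272 and 257 CPM in TgR. The TgR hippocampal libraries all lay above the FVB/N ones, while the PFC genotypes overlapped. Means were 215 ± 8.42 and 254 ± 20.6 CPM in hippocampus (SD, n = 3 each), and 279 ± 42.4 (n = 3) and 285 ± 26.7 CPM (n = 4) in PFC, in the order FVB/N and TgR.

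miR-223-3p, the myeloid miRNA, was counted 12, 30 and 42 times in FVB/N hippocampus and 34, 34 and 41 times in TgR hippocampus, or 0.917, 1.80 and 3.37 CPM and 1.82, 2.26 and 2.17 CPM. In the PFC it was counted 99, 45 and 44 times in FVB/N and 48, 119, 64 and 36 times in TgR, or 5.89, 3.98 and 3.13 CPM and 3.30, 12.4, 4.22 and 2.25 CPM. TgR PFC library 2 held the highest value, and that library also had the highest miR-451a, the red blood cell miRNA, at 1768 CPM against 696 to 1077 CPM in the other PFC libraries. Of the sparse passenger arms, miR-150-3p stayed between 1.78 and 3.83 CPM and miR-223-5p between 0.267 and 1.28 CPM over all libraries.

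The first question was whether the transgene altered these miRNAs in the hippocampus. None of the 5 arms tested passed an adjusted p of 0.05 (edgeR quasi-likelihood test, Benjamini-Hochberg over 726 pairs), where 3.44% of all pairs did. None had an unadjusted p under 0.05, and DESeq2 called none. miR-223-5p fell under the filter on low counts. The miR-142a-5p log2 fold change, TgR over FVB/N, was -0.07 (95% interval -0.41 to 0.27, adjusted p = 0.84) and that of miR-142a-3p was -0.02 (-0.35 to 0.31, adjusted p = 0.95). These intervals correspond to 0.750 to 1.21 times and 0.782 to 1.24 times the FVB/N level, and the sign of both values turned when libraries were scaled by their totals alone (0.0011 and 0.049).

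miR-150-5p had the largest change of the 5 arms, at 0.25 (SE 0.127, 95% interval -0.04 to 0.54, unadjusted p = 0.084, adjusted p = 0.34). Its lowest TgR library exceeded its highest FVB/N library, which held for 10.5% of all pairs. The sparse arms were less well resolved, with miR-150-3p at 0.20 (-0.33 to 0.72) and miR-223-3p at 0.05 (-0.80 to 0.91), the latter an interval of 0.575 to 1.88 times the FVB/N level on 12 to 42 counts per library. The members' median was 0.05 against -0.0031 for all pairs tested, with 3 arms above and 2 below 0 where 49.9% of all pairs were above.

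In the PFC, none of the 6 arms was called (adjusted p = 1.00 for each, edgeR over 730 pairs, with 0.137% of all pairs called), none was called by DESeq2 and none had an unadjusted p under 0.05. The log2 fold changes were 0.18 for miR-142a-5p (95% interval -0.11 to 0.48), 0.10 for miR-142a-3p (-0.38 to 0.59) and 0.0060 for miR-150-5p (-0.36 to 0.37). With scaling factors from the 7 PFC libraries alone, as in this test, no arm separated the genotypes, which 5.21% of all pairs did. On that scale miR-142a-5p in TgR PFC library 3 (153 CPM) fell below FVB/N PFC library 1 (159 CPM), so its separation on the 13-library scale depends on the scaling. miR-223-3p stood at 0.33 with an interval of -1.02 to 1.68, and at -0.48 without TgR PFC library 2. miR-150-3p stood at 0.37 (-0.35 to 1.09) and miR-223-5p at -0.03 (-0.90 to 0.84).

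The effect of genotype was compared between regions by an interaction term over all 13 libraries. None of the 6 arms passed (edgeR over 751 pairs, with 0.533% of all pairs called), none had an unadjusted p under 0.05 and DESeq2 called none. The smallest p among the members belonged to miR-142a-5p, whose effect of TgR was lower in hippocampus than in PFC by -0.28 on the log2 scale (95% interval -0.69 to 0.13, unadjusted p = 0.16, adjusted p = 0.81). For miR-150-5p the difference was 0.21 (-0.22 to 0.64, adjusted p = 0.92).

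**Figure D2:**
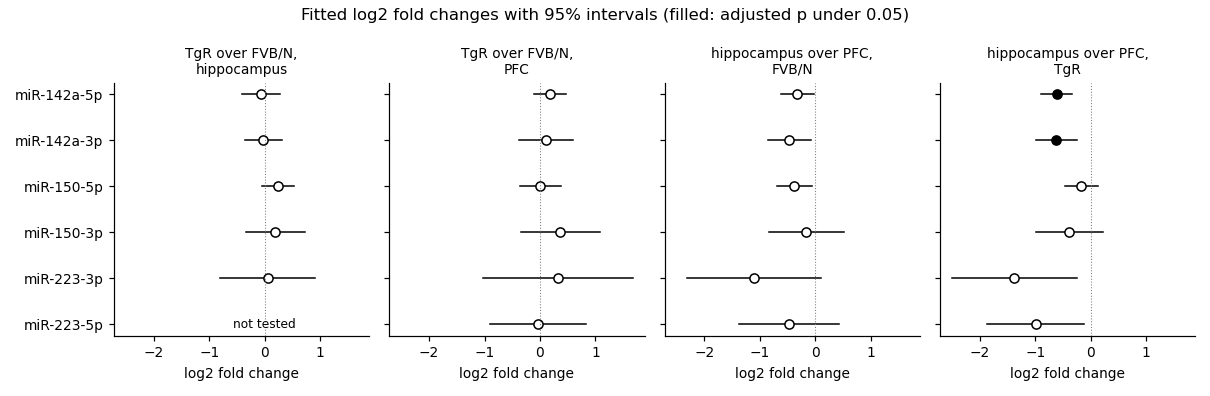
Fitted log2 fold changes of the 6 arms with 95% intervals in the 2 comparisons of genotype and the 2 of region, with filled points where the adjusted p was under 0.05. The genotype intervals all include 0, and the filled points are the miR-142a arms in TgR, at -0.61 and -0.62 for hippocampus over PFC.

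The comparison of regions gave the members' clearest difference. In TgR mice both miR-142a arms were lower in hippocampus than in PFC, by a log2 fold change of -0.61 for the 5p arm (SE 0.132, 95% interval -0.89 to -0.33, adjusted p = 0.0103) and -0.62 for the 3p arm (SE 0.173, -0.99 to -0.25, adjusted p = 0.0404). These correspond to 1.53-fold and 1.54-fold lower levels, and these 2 of 6 arms were called where 7.99% of all pairs were, or 4.13% toward lower levels. The 5p arm lost its call in 5 of 16 alternatives, with an adjusted p of 0.055 under library totals alone, 0.14 without a filter, 0.057 with a replicate block, and 0.056 or 0.052 without TgR hippocampal library 2 or 3. The 3p arm lost its call in 11 of 16 alternatives, among them leaving out any TgR hippocampal library or TgR PFC library 2, 3 or 4 (adjusted p of 0.052 to 0.19), and the direction stayed in all 16. Both miR-223 arms were also lower in TgR hippocampus by edgeR, though not called. miR-223-3p stood at -1.38 (unadjusted p = 0.0201, adjusted p = 0.13) and miR-223-5p at -0.99 (unadjusted p = 0.0295, adjusted p = 0.17).

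In FVB/N mice no arm was called for region (5.33% of all pairs were, edgeR over 751 pairs), nor by DESeq2. The 3 arms with an unadjusted p under 0.05, miR-142a-3p, miR-142a-5p and miR-150-5p, all had hippocampal libraries below every PFC library, as 9.45% of all pairs had. Their log2 fold changes were -0.47 (95% interval -0.86 to -0.08, adjusted p = 0.15), -0.33 (-0.63 to -0.03, adjusted p = 0.19) and -0.38 (-0.69 to -0.06, adjusted p = 0.15). For miR-150-5p the TgR value was nearer 0, at -0.17 (-0.46 to 0.13, adjusted p = 0.59), but the interaction above did not separate the 2 genotypes.

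The regions were also compared over the mean of both genotypes, a contrast added after the data had been examined. There miR-142a-5p was 1.39-fold lower in hippocampus (log2 fold change -0.47, SE 0.0956, 95% interval -0.67 to -0.27, adjusted p = 0.0037) and miR-142a-3p 1.46-fold lower (-0.54, SE 0.126, -0.81 to -0.27, adjusted p = 0.0076). For both arms all 6 hippocampal libraries lay below all 7 PFC libraries, as 2.53% of all pairs did. Library totals alone left both calls in place, and without the filter miR-142a-5p was no longer called (-0.38, adjusted p = 0.061). In whole tissue, fewer cells of a type and less of the miRNA per cell cannot be told apart.

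miR-223-3p was 2.37-fold lower in hippocampus in the same contrast (-1.24, SE 0.386, 95% interval -2.07 to -0.42, adjusted p = 0.0396). That made 3 of 6 arms called, against 16.1% of all pairs and 6.79% toward lower levels. Its regions overlapped, since FVB/N hippocampal library 3 at 3.37 CPM exceeded 3 of the PFC libraries. The call was fragile, with adjusted p-values of 0.052 to 0.12 in the 8 fits in which leaving out 1 library lost it, namely FVB/N hippocampus 1 or 2, any TgR hippocampal library, FVB/N PFC 1 or 2, or TgR PFC 3. Without TgR PFC library 2 the difference was smaller, at -0.88, and the adjusted p was 0.039.

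miR-150-5p (-0.27, 95% interval -0.49 to -0.06, adjusted p = 0.089), miR-223-5p (-0.73, -1.36 to -0.10, adjusted p = 0.12) and miR-150-3p (-0.27, -0.73 to 0.18, adjusted p = 0.48) were not called over both genotypes. Without FVB/N PFC library 2, miR-150-5p (-0.36, adjusted p = 0.038) and miR-223-5p (-0.89, adjusted p = 0.046) were called. All 6 arms had a negative value there, with a median of -0.51 against -0.0072 over all pairs, of which 48.3% were above 0. The arms are not independent of each other, since each hairpin yields 2 of them.

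Arm use was compared within hairpins, where library scaling has no effect. The 3p arm made up 30.9% to 40.3% of the counts of miR-142a, 0.548% to 1.39% of those of miR-150 and 63.2% to 93.7% of those of miR-223. miR-142a thus kept both arms, miR-150 was almost wholly its 5p arm, and miR-223 was mostly its 3p arm, in every library. Between genotypes the log2 ratio of 3p to 5p counts differed by -0.023 for miR-142a (exact permutation test, two-sided, p = 0.834), 0.12 for miR-150 (exact permutation p = 0.623) and 0.35 for miR-223 (exact permutation p = 0.461). Between regions it differed by -0.058, 0.032 and -0.48 (exact permutation p = 0.661, 0.897 and 0.313). Labels were permuted within the other factor, over 700 assignments. Without adjustment none of the 6 tests passed 0.05.

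**Figure D3:**
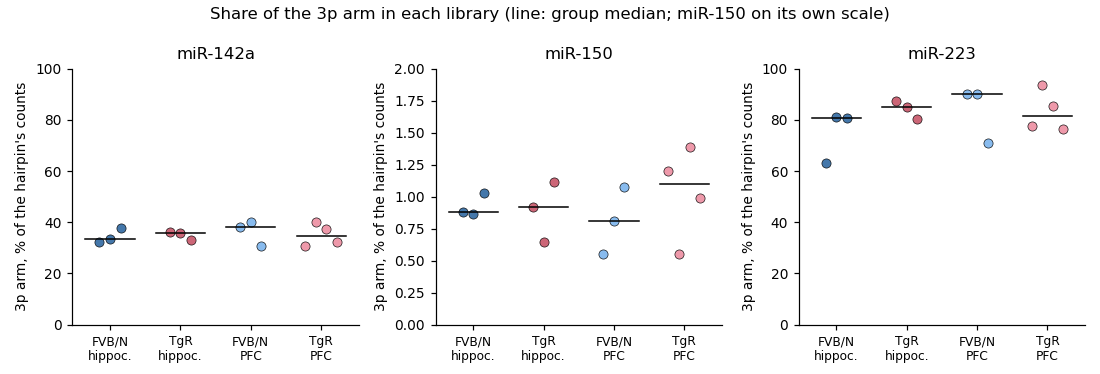
Share of the 3p arm in the counts of each hairpin, with 1 point per library and a line at the group median. miR-142a and miR-223 are on an axis from 0 to 100% and miR-150 on an axis from 0 to 2%. Groups overlap for each hairpin, and miR-223 scatters most, at 63.2% to 93.7%.

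Red blood cell miRNAs, which also reach tissue RNA through blood, were set beside the members. miR-451a, which matures without Dicer in red blood cell precursors, measured 664, 755 and 766 CPM in FVB/N hippocampus and 312, 476 and 415 CPM in TgR hippocampus. Its log2 fold change was -0.86 (SE 0.165, adjusted p = 0.0427, edgeR), and miR-144-5p, from the same cluster, was lower by -1.01 (adjusted p = 0.0427). These were 2 of the 7 arms of mir-451a, mir-144, mir-486a and mir-486b tested, where 3.44% of all pairs were called. All 7 lay below 0, with a median of -0.86. Neither call held without FVB/N hippocampal library 3, where the 1 pair still called was higher in TgR. mir-486a and mir-486b are near-identical and share reads. None of the 5 white blood cell arms tested there was called. The summed red blood cell level was 1326 to 1491 CPM in FVB/N hippocampus and 591 to 836 CPM in TgR hippocampus, while the summed white blood cell level was 396 to 402 and 419 to 452 CPM.

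Relative to miR-451a, miR-150-5p therefore stood at 28.2% to 31.2% in FVB/N hippocampus and 58.2% to 75.9% in TgR hippocampus. miR-451a by itself separated the genotypes there, at 664 to 766 CPM in FVB/N and 312 to 476 CPM in TgR. An unchanged miRNA divided by it can therefore separate them too, and the share of all pairs that do was not counted. For miR-142a-5p the ratio was 13.4% to 19.2% and 23.0% to 37.3%, and for miR-223-3p 0.138% to 0.440% and 0.475% to 0.583%. In the PFC the ratios of the genotypes overlapped for miR-150-5p (24.6% to 39.5% in FVB/N and 18.0% to 30.3% in TgR) and miR-142a-5p (13.8% to 22.0% and 9.84% to 18.1%). The ratios are a description, in which the denominator miR-451a was called lower in TgR hippocampus and the numerators were not called. The difference between the 2 kinds of blood miRNA was not tested.

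**Figure D4:**
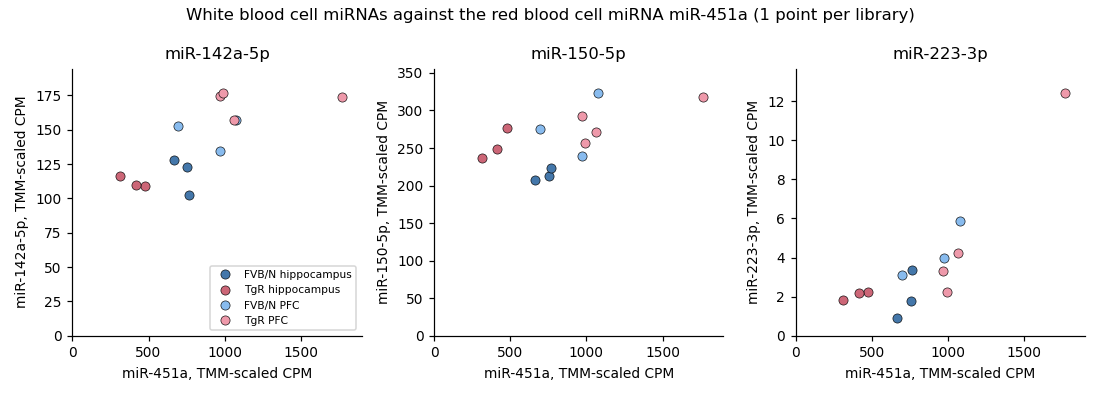
miR-142a-5p, miR-150-5p and miR-223-3p against miR-451a, all in TMM-scaled CPM from 0, with 1 point per library coloured by group. TgR hippocampal libraries sit at 312 to 476 CPM of miR-451a, left of every other library, with miR-150-5p at 237 to 277 CPM.

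By region, the red blood cell list was lower in hippocampus in TgR, as the members were, and less clearly so in FVB/N. In TgR, 3 of its 7 arms were called, all lower in hippocampus, where 7.99% of all pairs were called, or 4.13% toward lower levels. Among them was miR-451a (-1.58, adjusted p = 0.00046, edgeR). The list's median was -0.69 beside -0.61 for the 6 members and 0.02 for all pairs. In FVB/N none of its 7 arms was called, 1 lay above 0, and its median was -0.18, beside -0.42 for the members. Over both genotypes 3 of 7 were called lower, against 6.79% of all pairs, and the list's median was -0.36. Its summed level was 1287 to 1832 CPM in FVB/N PFC and 1460 to 2411 CPM in TgR PFC. The part of red blood cell content in the regional difference of miR-142a was not tested.

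Among the miRNAs of vessel walls, mir-126a of endothelium and mir-143 and mir-145a of smooth muscle, 0 of 6 tested arms were called in any of the 6 contrasts. Their median for hippocampus over PFC was -0.22 in TgR and -0.28 over both genotypes, and their summed level was 10704 to 18383 CPM in hippocampus and 13542 to 18932 CPM in PFC. For region in TgR, unadjusted p-values under 0.05 (edgeR) fell to miR-126a-3p (-0.47, unadjusted p = 0.0138) and miR-143-3p (-0.43, unadjusted p = 0.0168). Over both genotypes they fell to the same arms (-0.33, unadjusted p = 0.0171, and -0.32, unadjusted p = 0.0142). In FVB/N miR-126a-5p was lower in hippocampus (-0.52, unadjusted p = 0.0402). By genotype in hippocampus miR-126a-5p was higher in TgR (0.50, unadjusted p = 0.0163), while miR-126a-3p stood at -0.33. The part of vessel miRNAs in the miR-142a difference was not tested.

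Of the other immune and inflammation miRNAs, miR-146a, miR-146b, miR-155, miR-21a and miR-342, 7 of 10 listed arms were tested and none was called between genotypes in either region. miR-155-5p, induced in activated macrophages and lymphocytes, had log2 fold changes of 1.08 in hippocampus (SE 0.361, adjusted p = 0.16) and -0.98 in PFC (SE 0.356, adjusted p = 1.00). These rest on few counts. In hippocampus mir-155 was counted 6, 27 and 18 times in FVB/N and 55, 39 and 41 times in TgR. In PFC it was counted 55, 14 and 30 times in FVB/N and 15, 11, 15 and 23 times in TgR. The list's median was 0.25 in hippocampus and -0.24 in PFC, beside 0.05 and 0.14 for the members. By region miR-21a-5p alone was called, and it was higher in hippocampus, by 0.84 in TgR (adjusted p = 0.0038) and 0.63 over both genotypes (adjusted p = 0.0018), opposite in sign to the white blood cell arms.

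The choroid plexus and ciliated cell list held mir-204, mir-34b, mir-34c and the mir-449 hairpins. Its mir-34b and mir-34c arms stood out in the TgR hippocampal libraries. mir-204 was uneven, with 59078, 15036 and 52404 counts in TgR hippocampus and 13694, 11186 and 9668 in FVB/N hippocampus. Of 7 arms tested there, 4 were called higher than in FVB/N, where 3.44% of all pairs were called, and the list median was 2.32. They were the 4 arms of mir-34b and mir-34c, by 2.32 to 2.97, while miR-204-5p (1.49, adjusted p = 0.078), miR-204-3p (1.35, adjusted p = 0.085) and miR-449a-5p (-0.61, adjusted p = 0.39) were not called. In TgR, 6 of the 7, the arms of mir-34b, mir-34c and mir-204, were called higher in hippocampus than in PFC, where 7.99% of all pairs were called. Their summed level was 1414 to 4015 CPM in TgR hippocampus and 828 to 1189 CPM in FVB/N hippocampus. The part of cells carrying these miRNAs in the TgR values of the white blood cell arms was not tested. Of the 19 neuronal pairs tested, 2 were called by region in TgR and over both genotypes, where 7.99% and 16.1% of all pairs were called. They are the 2 hairpins of miR-128-3p, which share reads, lower in hippocampus by -0.72 and -0.67 in TgR.

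**Figure D5:**
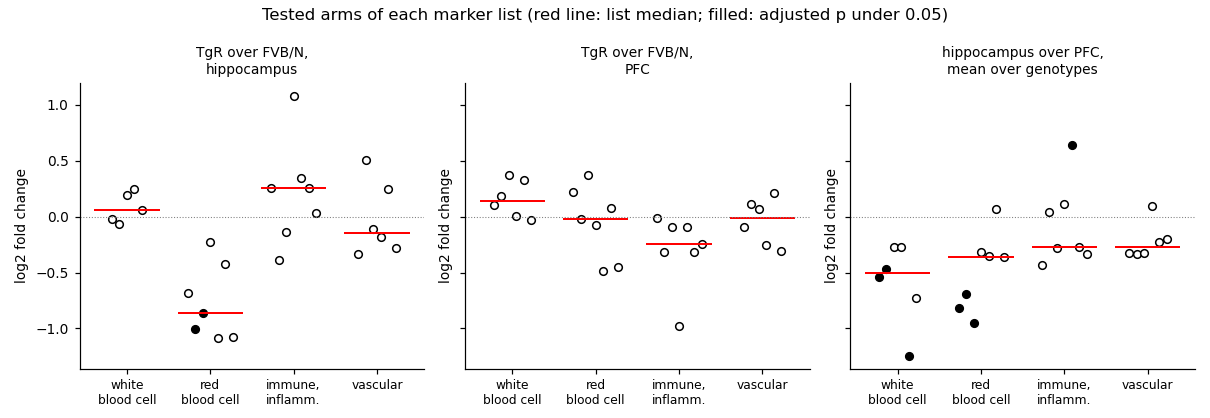
Log2 fold changes of the tested arms of the white blood cell, red blood cell, immune and inflammation, and vascular lists, for TgR over FVB/N in hippocampus and in PFC and for hippocampus over PFC averaged over genotypes. Red lines mark list medians and filled points an adjusted p under 0.05. In hippocampus the red blood cell median is -0.86 and the white blood cell median 0.05.

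The members were then related to each other and to miR-451a over the libraries of each region, as 12 relations of log2 CPM. Only 1 passed adjustment. In the 6 hippocampal libraries miR-142a-5p and miR-223-3p ran in opposite order, with Pearson r = -0.927 (exact permutation p = 0.00278, adjusted 0.033) and Spearman rho = -1 (exact permutation p = 0.00278, adjusted 0.033). This p is the smallest that 6 libraries allow in the permutation. Without the 2 libraries farthest from the median, FVB/N hippocampus 1 and 3, few points remained and r was -0.925. With each genotype centred on its mean r was -0.932. In the 7 PFC libraries the same pair gave r = 0.075 (exact permutation p = 0.946) and rho = -0.214 (exact permutation p = 0.662). miR-223-3p rests on 12 to 42 counts in those hippocampal libraries. The other arm, miR-142a-3p, was not among the 12 relations. For deviations from the group means over all 13 libraries, r with miR-223-3p was -0.362 for miR-142a-5p and 0.673 for miR-142a-3p. The opposite order thus describes the 5p arm and not the hairpin.

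The relation of miR-223-3p to miR-451a in the PFC did not pass adjustment, with r = 0.834 (exact permutation p = 0.0536, adjusted 0.321) and rho = 0.786 (exact permutation p = 0.048, adjusted 0.288) over 7 libraries, and r = 0.717 without TgR PFC 2 and 4. In hippocampus the same relation had r = 0.010 (exact permutation p = 0.922). With each genotype centred on its mean, r was 0.471 in hippocampus and 0.923 in PFC. For miR-142a-5p and miR-451a, r was 0.114 in hippocampus (exact permutation p = 0.819) and 0.383 in PFC (exact permutation p = 0.357). Centred in the same way, it was -0.497 in hippocampus and -1.4e-04 in PFC. The centred values were not tested, and miR-451a itself was lower in TgR hippocampus. miR-150-5p and miR-223-3p in PFC had r = 0.667 (exact permutation p = 0.0905, adjusted 0.362), which fell to -0.043 without FVB/N PFC 1 and TgR PFC 2 and so rests on those libraries.

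The patterns most like each member were sought as the Pearson r of deviations from the 4 group means over the 13 libraries, among 645 mature miRNAs. These are descriptions, in libraries that share their depth and scaling. Several of the nearest were sparse. Among these, miR-344h-3p measured 0.161 to 0.994 CPM, miR-466f-3p 0.641 to 2.26 CPM and miR-466h-5p 0.751 to 1.98 CPM. miR-7093-3p measured 0.855 to 2.40 CPM and miR-669b-5p 1.06 to 3.65 CPM. miR-150-5p was closest to miR-23a-3p (r = 0.870), followed by miR-466f-3p (0.818), miR-212-3p (0.815), miR-297a-3p and miR-297b-3p (0.797 each, with the same counts). miR-223-3p was closest to miR-467e-5p (0.914), then miR-669b-5p, miR-466h-5p, miR-7093-3p and miR-153-3p (0.902 to 0.808), with miR-451a eighth (0.800). miR-142a-5p was closest to miR-344h-3p (0.780), then miR-487b-3p, miR-362-3p, miR-146b-3p and miR-181c-3p (0.759 to 0.689). Its own partner miR-142a-3p stood 368th, with r = -0.077, although the 2 arms had r = 0.778 over the 13 libraries before the group means were removed.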

How the data were processed

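Small RNA of 13 libraries was sequenced from NEBNext libraries on an Illumina NextSeq. The deposited counts, whole numbers per pair of hairpin and mature miRNA, were made by the authors with FastQC and with miRExpress at default settings against miRBase. The members, marker lists and tests were chosen with earlier results of these data known, and the named miRNAs are all member arms, arms of those lists that were called or are the main arm, and the 5 nearest patterns. The arms of mir-126a and mir-143 and the uncalled arms of mir-204 and mir-449a were named after their values were seen.

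Pairs passing filterByExpr (minimum count 10) were tested with edgeR 4.0.16 (R 4.3.3) by quasi-likelihood on TMM-scaled counts, with Benjamini-Hochberg adjustment over all tested pairs. Genotype was fitted within region, and region and the interaction over all 13 libraries. The script was tested on simulated data. Arm ratios used 0.5 added to each count, with every assignment of labels enumerated. The relations between miRNAs used exact permutation in scipy 1.17.1. Alternatives were DESeq2 1.42.0, its size factors, library totals alone, no filter, a mean of at least 300 counts, a single row per mature miRNA, an adjusted p under 0.1, other library sets, a replicate block and leaving out each library. The region mean over genotypes was added after the data had been examined. Genes and coordinates come from GENCODE M21 and RefSeq (GRCm38.p6), in which 5 of the 6 arms matched. Region p-values treat hippocampal and PFC libraries as separate mice. The FVB/N PFC files carry other replicate numbers than the sample titles. The titles were used, also in the replicate block.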

Additional observations from a re-analysis of the deposited data

Results flagged for a closer look

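miR-142a-5p in TgR PFC was flagged because 1 library lay apart from the others. TgR PFC library 3 measured 157 CPM against 174 to 177 CPM in the other 3, a gap of 0.854 of the group's range, above Dixon's 95% critical value for 4 samples. With scaling factors from the PFC libraries alone it measured 153 CPM against 163 to 180 CPM. Chance flags about 1 in 20 groups. In the same group, miR-223-3p in library 2 (12.4 CPM against 2.25 to 4.22) reached 0.806, under that value.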

How the results depend on the processing

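The negative sign of both miR-142a arms, miR-150-5p and miR-223-3p for hippocampus over PFC held in each alternative tried, and no genotype or interaction value of a member passed 0.05 in any. With library totals alone, the median over all pairs moved to 0.14 for region in TgR and 0.15 for the interaction, and the hippocampal genotype values of miR-142a-3p and miR-142a-5p became 0.049 and 0.0011. Without a filter miR-142a-3p gave 0.011. miR-150-5p in PFC became -1.5e-04 with DESeq2, -0.027 with library totals, -0.0090 without a filter and -0.026 with a mean of at least 300 counts. The cause was not tested.

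Counts of all pairs called moved more. For genotype in hippocampus (25) they were 56 with DESeq2, 63 without a filter and 48 at an adjusted p under 0.1. For the interaction (4) they were 23, 13 and, with a mean of at least 300, 2. For region in FVB/N (40) they were 84, 69 and 84, and 24 with that genotype's libraries only.

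The replicate block left 9 calls for genotype in hippocampus and gave 10 for the interaction, lost both miR-142a calls in TgR (adjusted p of 0.057 and 0.073) and turned miR-223-5p in PFC to 0.076. Correlations of deviations between same-numbered libraries ran from -0.22 to 0.42 and were not all above 0.1 in any comparison, so the numbers were not taken to pair the libraries. Whether both regions came from the same mice cannot be told from them.

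Leaving out 1 library gave 1 to 28 calls for genotype in hippocampus (1, 12 and 9 without FVB/N 3, FVB/N 1 and TgR 3), 2 to 8 for the interaction, 23 to 60 for region in FVB/N (23 without hippocampus 2), and 28 to 62 for region in TgR (28 and 31 without hippocampus 1 and 3, 39 and 29 without PFC 1 and 3), where an arm left with fewer libraries was assumed to vary like the others. Values that changed sign had these ranges. In hippocampus TgR over FVB/N was -0.13 to 0.033 for miR-142a-3p, -0.0054 to 0.34 for miR-150-3p and -0.34 to 0.53 for miR-223-3p. In PFC it was -0.055 to 0.23 for miR-142a-3p, -0.10 to 0.15 for miR-150-5p, -0.48 to 0.64 for miR-223-3p (negative without TgR 2) and -0.29 to 0.46 for miR-223-5p. The interaction was -0.23 to 0.017 for miR-142a-3p and -0.66 to 0.46 for miR-223-3p, and region in FVB/N -0.35 to 0.095 for miR-150-3p and -0.77 to 0.021 for miR-223-5p. The log2 arm ratio was -0.11 to 0.036 by genotype and -0.15 to 0.0016 by region for miR-142a, and -0.011 to 0.25 and -0.10 to 0.15 for miR-150.

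Counts of 5 to 18 for miR-223-5p and 12 to 119 for miR-223-3p limit what these arms can show.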
